A study of Mus musculus with 8 samples.

Results

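The genes described here are 56 genes of the actin cytoskeleton and its focal adhesions, taken by name from the 56748 genes of a table of RNA sequencing counts from mouse primary hepatocytes. The rule uses names only and no measured value, but the list was chosen with earlier results of these data known. RNA was sequenced from 8 libraries, 2 in each of 4 groups that crossed genotype with the stiffness of the culture surface. The question was how hepatocytes respond to a stiff surface and what that response needs of Yap and Taz, related transcriptional coactivators that read mechanical cues.

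All 4 groups came from C57BL/6J mice, given as 7 to 8 weeks old, whose Yap and Taz alleles were both floxed (Yap fl/fl;Taz fl/fl). The study states 7 or 8 weeks as the age at virus injection, and that the line also carries a tdTomato reporter. Knockout mice received AAV8-TBG-Cre and the mice called wild type received AAV8-TBG-Null, so wild type here means floxed and not deleted. The thyroxine-binding globulin (TBG) promoter restricts Cre to hepatocytes, and other liver cells in a culture would keep both genes. After 10 days hepatocytes were isolated and kept for 24 h on collagen-coated polyacrylamide hydrogels of 1 kPa (soft) or 20 kPa (stiff). Nothing in the sources says that the 2 libraries of a group came from separate animals or cultures, so the p-values measure only the spread between these libraries, which may be technical.

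Library totals ran from 18324083 to 26442310 counts, and 3 counts, the most that a count of 0 allows at 95% confidence, corresponded to 0.116 to 0.167 CPM (counts scaled to library size with the TMM factors of edgeR). The targeted genes checked the labels. Yap1 had 2591 and 1720 counts in wild-type soft, 2913 and 2651 in wild-type stiff, 747 and 640 in knockout soft and 606 and 634 in knockout stiff libraries. Wwtr1, the gene of Taz, had 1103 and 748, 1325 and 1284, 410 and 333 and 335 and 277 in the same order, so both were low but not absent in knockout. The sources disagree on the sex of the mice, and the study's methods state males. Xist had 4818 to 8443 counts in every library while the Y-linked Ddx3y, Eif2s3y, Kdm5d and Uty were at 0 in all 8, the pattern of female cells. Hepatocyte markers (10 of 10 with counts) summed to 92764 to 96320 CPM in wild type and 64576 to 65288 in knockout, most of it Alb, albumin. Of these 10, 3 were called lower in knockout on the soft hydrogel, and 3 lower and 2 higher on the stiff one. Within wild type, 3 were called lower and 1 higher on the stiff hydrogel than on the soft one. The shares of all genes called are given with each comparison below. Markers of other liver cells were present at low level and are given beside the results they move with.

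Actin filaments grow from a pool of globular actin that profilin and the thymosins hold ready, cofilin takes old filaments apart, and the Arp2/3 complex, formins and Ena/VASP proteins start or extend new ones. Non-muscle myosin II pulls on filaments that alpha-actinin and filamin crosslink and that tropomyosin, calponin, caldesmon and transgelin coat, and the pull reaches the matrix through focal adhesions of integrins, talin, vinculin, zyxin and the kinase ILK. Many of these genes are known targets of serum response factor (SRF), which binds a short element called the CArG box and whose cofactors MRTF-A and MRTF-B are held by free actin. In hepatocytes, actin and myosin line the cell cortex and the bile canaliculi.

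The upstream sequence of 4 members is printed because each holds that element, and because between them they cover the largest called rise at a mean of at least 100 counts (Cnn2), an abundant actin (Actg1), the one member called lower on the stiff hydrogel (Vcl) and the factor itself (Srf). Each line is the stretch of 250 bases before the start site, from RefSeq on GRCm38.p6, written 5′ to 3′ on the strand of the gene with CArG boxes in capitals.

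Cnn2 (chr10:79988350-79988599, plus strand): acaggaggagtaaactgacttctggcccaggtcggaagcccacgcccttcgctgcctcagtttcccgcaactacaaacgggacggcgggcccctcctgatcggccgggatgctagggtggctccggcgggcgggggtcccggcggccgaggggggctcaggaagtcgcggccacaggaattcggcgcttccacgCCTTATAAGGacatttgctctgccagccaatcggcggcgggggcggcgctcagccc

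Actg1 (chr11:120348496-120348745, minus strand): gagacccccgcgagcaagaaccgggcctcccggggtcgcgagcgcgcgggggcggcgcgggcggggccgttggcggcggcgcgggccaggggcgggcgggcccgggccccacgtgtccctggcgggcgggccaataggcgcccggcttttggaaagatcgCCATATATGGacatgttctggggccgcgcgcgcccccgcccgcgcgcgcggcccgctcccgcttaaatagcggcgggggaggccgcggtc

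Vcl (chr14:20929148-20929397, plus strand): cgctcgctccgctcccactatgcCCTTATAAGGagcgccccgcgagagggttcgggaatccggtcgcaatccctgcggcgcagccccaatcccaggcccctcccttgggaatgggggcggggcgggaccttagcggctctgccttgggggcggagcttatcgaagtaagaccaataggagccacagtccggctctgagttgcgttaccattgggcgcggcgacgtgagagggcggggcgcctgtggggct

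Srf (chr17:46556163-46556412, minus strand): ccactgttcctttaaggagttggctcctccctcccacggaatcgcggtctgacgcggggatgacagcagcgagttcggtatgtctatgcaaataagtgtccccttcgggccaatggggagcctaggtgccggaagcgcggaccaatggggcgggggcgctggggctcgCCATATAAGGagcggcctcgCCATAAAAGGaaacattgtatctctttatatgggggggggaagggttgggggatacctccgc

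A promoter entry matched 47 of the 56 members by symbol. Counting both strands, a CArG box lay in a promoter of 7 of these 47 genes (14.9%), against 1.81% of the 27025 genes with any entry. Besides the 4 printed, these were Myl9 with CCTAATAAGG, Myl6 with CCTTATATGG and Fermt2 with CCATAAAAGG, whose first bases lie 161, 50 and 204 bases before the start site. The letters GGAATG, a TEAD-type motif, were found on either strand in a promoter of 11 of the 47 members (23.4%) and of 16.6% of all genes with an entry. These matches describe letters in short windows and are not binding sites, and binding was not measured here.

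Per kilobase of gene length, the 5 members with the highest mean level over the 8 libraries were Actb, Pfn1, Actg1, Cfl1 and Arpc2, that is, the cytoplasmic actins, profilin, cofilin and an Arp2/3 subunit. Actb stood at 1562 CPM per kilobase. The muscle-type members were at the other end. Tagln (transgelin), the lowest, had between 0 and 14 counts in a library and was the single member that did not pass the filter on low counts, leaving 55 of 56 for the tests. Cnn1 (smooth-muscle calponin), Enah, Tln2, Myl9 and Ilk were also low, and their values carry wider error than those of the abundant members.

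**Figure D1:**
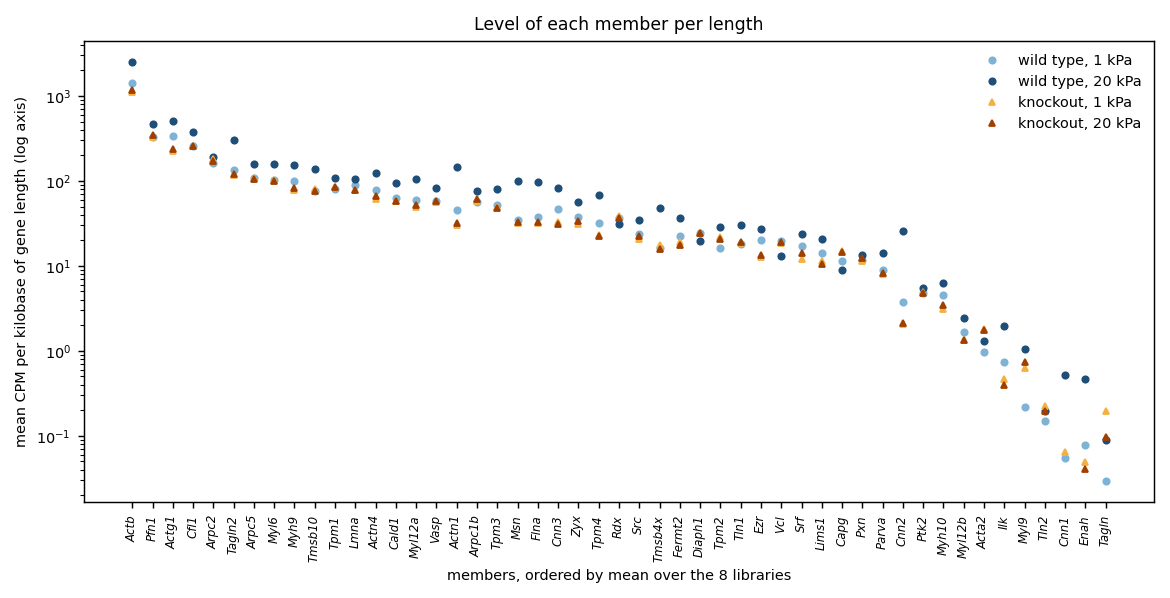
Mean CPM per kilobase of gene length (log axis) of each of 49 members in the 4 groups, ordered by the mean over all 8 libraries, with circles for wild type, triangles for knockout and no marker for a group mean of 0. For most members the wild-type stiff point lies highest and the other 3 lie close together, and Tagln, Enah and Cnn1 lie lowest.

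Together the 56 genes held 1.60% and 1.65% of the reads counted in the wild-type soft pair and 2.56% and 2.54% in the wild-type stiff pair. In knockout the share was 1.49% and 1.48% at 1 kPa and 1.54% and 1.49% at 20 kPa. The wild-type stiff libraries were the ones that stood apart.

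Stiffness in wild type was compared first. A gene was called when the adjusted p was under 0.05 and the absolute log2 fold change over 0.5, the study's own thresholds, with edgeR's quasi-likelihood test over all 14279 genes that passed the filter. On the stiff hydrogel 32 of the 55 members tested were called higher and 1 was called lower (60%), beside 19.3% of all genes (10.0% higher, 9.26% lower). With no minimum fold change 47 members were higher and 4 lower, beside 21.1% and 20.0% of all genes. The median log2 change of the members was 0.56, against -0.0087 over all genes tested, and 50 of 55 values were positive. In every one of the 55 the soft and stiff libraries did not overlap, which was so for 68.9% of all genes tested. Calls were spread over the actins, the coating proteins, myosin II and adhesion components.

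**Figure D2:**
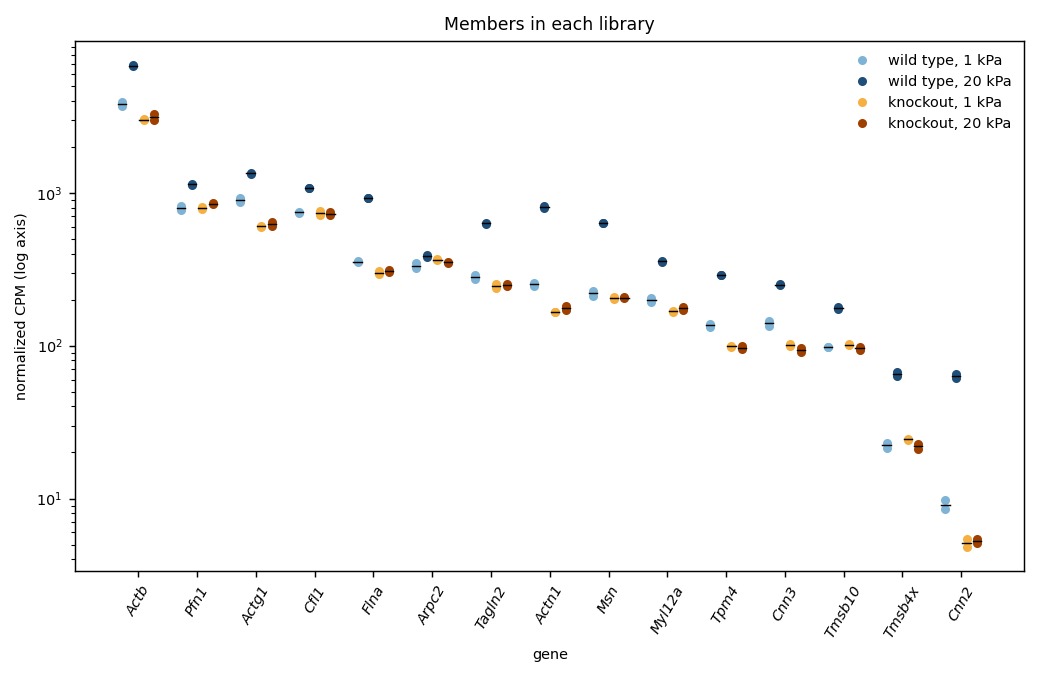
Normalized CPM (log axis) of 15 members in each of the 8 libraries, being the 10 with the largest called change in wild type at a mean of at least 100 counts and the 5 highest per length, with a point per library and a bar at each group mean. The wild-type stiff points (dark blue) lie above the other 3 groups for all 15 members.

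Of the 3 actins, the cytoplasmic pair was called higher. Actb, cytoplasmic beta-actin and the most abundant member, had 3715 and 3932 CPM in wild-type soft, 6863 and 6703 in wild-type stiff, 3022 and 2999 in knockout soft and 3257 and 2993 in knockout stiff libraries. It rose 1.77-fold in wild type (log2 change 0.83 ± 0.035 SE, adjusted p = 1.65e-12). Actg1, cytoplasmic gamma-actin, whose promoter with its CArG box is printed above, had 869 and 918 CPM in wild type at 1 kPa and 1331 and 1354 at 20 kPa, and 607 and 598 and then 645 and 609.6 in knockout. Its rise was 1.503-fold (log2 change 0.59 ± 0.038 SE, adjusted p = 4.65e-10), and for both genes the stiff wild-type libraries were above all 6 others. Of the 64-base windows of the longest Actg1 transcript 55.7% also occur in other genes, so its counts depend on how shared reads were assigned. Acta2, alpha smooth muscle actin, is the actin of activated stellate cells and smooth muscle, and its wild-type change of 0.44 ± 0.23 (adjusted p = 0.135) was not called.

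Among the proteins that bind actin monomers and turn filaments over, 4 of 5 were called higher and Capg was not called. Tmsb4x, thymosin beta 4, which sequesters monomers and lies on the X chromosome, had 23.0 and 21.5 CPM in wild-type soft, 63.6 and 66.9 in wild-type stiff, 24.1 and 24.6 in knockout soft and 21.2 and 22.7 in knockout stiff libraries. Its 2.92-fold rise (log2 change 1.55 ± 0.074 SE, adjusted p = 7.74e-12) exceeded that of Tmsb10, a close relative, which had 98.4 and 97.3 CPM in wild type at 1 kPa and 173 and 179.5 at 20 kPa, and 100.5 and 103 and then 97.7 and 94.1 in knockout and rose 1.80-fold (log2 change 0.85 ± 0.049 SE, adjusted p = 1.14e-10). The knockout libraries of both genes lay near the wild-type soft ones on either gel. Pfn1, profilin, which feeds monomers to growing ends, had CPM of 766 and 819 (wild-type soft), 1129 and 1135 (wild-type stiff), 801 and 781 (knockout soft) and 839 and 853 (knockout stiff). Cfl1, cofilin, which severs filaments, had 739 and 747 CPM in wild-type soft, 1077 and 1074 in wild-type stiff, 758 and 715 in knockout soft and 746 and 715 in knockout stiff libraries. These rose 1.43-fold (log2 change 0.51 ± 0.037 SE, adjusted p = 2.02e-09) and 1.45-fold (log2 change 0.53 ± 0.037 SE, adjusted p = 1.34e-09), and both lie close to the fold threshold. Without wild-type soft replicate 1 the Pfn1 change was 0.47 and no longer called. Capg, which caps filament ends, changed by -0.35 ± 0.076 (adjusted p = 0.00116), in the opposite direction.

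Of the 6 genes of nucleation and elongation 2 were called higher. Enah, also called Mena, which extends filaments at adhesions and the leading edge, had 1.54 and 1.83 CPM in wild-type soft, 9.26 and 10.9 in wild-type stiff, 1.37 and 0.746 in knockout soft and 1.12 and 0.642 in knockout stiff libraries. It rose 6.02-fold (log2 change 2.59 ± 0.25 SE, adjusted p = 1.49e-07) from a low level, and the 2 stiff wild-type libraries stood far above the rest. Arpc5, a subunit of Arp2/3, rose too (log2 change 0.56 ± 0.042 SE, adjusted p = 5.41e-09). Arpc2, another subunit and the more abundant one, had 345 and 323 CPM in wild type at 1 kPa and 379.6 and 391 at 20 kPa, and 367 and 362 and then 346 and 354 in knockout, a change of 0.21 ± 0.042 (adjusted p = 0.000611) that stayed under the fold threshold. Arpc1b, a further subunit, and Vasp, the relative of Enah, changed by 0.43 and 0.49 and were not called, and Diaph1, a formin that nucleates unbranched filaments, changed by -0.31.

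Crosslinkers and membrane linkers showed some of the largest changes, with 4 of 6 called higher. Actn1, alpha-actinin 1, which bundles filaments at adhesions, had 245 and 258 CPM in wild-type soft, 789 and 813 in wild-type stiff, 166 and 166 in knockout soft and 182 and 172 in knockout stiff libraries. It rose 3.18-fold (log2 change 1.67 ± 0.043 SE, adjusted p = 2.19e-15). Its relative Actn4 rose less (log2 change 0.65 ± 0.040 SE, adjusted p = 2.28e-10). Flna, filamin A, which joins crossing filaments into a network, had 351 and 359 CPM in wild type at 1 kPa and 926 and 924 at 20 kPa, and 293 and 305 and then 312 and 303 in knockout. Msn, moesin, which ties filaments to the plasma membrane, had CPM of 227 and 212 (wild-type soft), 636 and 636 (wild-type stiff), 207 and 202 (knockout soft) and 207 and 204 (knockout stiff). Flna rose 2.61-fold (log2 change 1.38 ± 0.038 SE, adjusted p = 5.62e-15) and Msn 2.89-fold (log2 change 1.53 ± 0.043 SE, adjusted p = 5.62e-15), both X-linked, and in neither did a stiff wild-type library come near any other. Of the relatives of moesin, Ezr, ezrin, rose by less (0.45), from 66.1 and 66.1 CPM in wild-type soft to 91.2 and 89.8 in wild-type stiff libraries. Rdx, radixin, the main relative in hepatocytes, moved the other way, by -0.22. Neither was called.

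The proteins that coat filaments had the most calls, 8 of the 9 tested. Cnn2, calponin 2, which binds along filaments and restrains myosin, had 8.55 and 9.72 CPM in wild-type soft, 65.3 and 61.8 in wild-type stiff, 4.84 and 5.42 in knockout soft and 5.15 and 5.44 in knockout stiff libraries. It rose 7.00-fold (log2 change 2.81 ± 0.099 SE, adjusted p = 1.35e-13), the largest change among members with a mean of at least 100 counts. Cnn1, the smooth muscle calponin, had 2 and 4 counts in wild-type soft, 31 and 27 in wild-type stiff, 4 and 4 in knockout soft and 0 and 0 in knockout stiff libraries. Few as these are, the wild-type rise was called (log2 change 3.32 ± 0.63 SE, adjusted p = 0.000423, 95% interval 1.98 to 4.66). Cnn3, calponin 3, the main calponin of these cells, had 146 and 135 CPM in wild type at 1 kPa and 254 and 248 at 20 kPa, and 102 and 99.3 and then 90.4 and 96.5 in knockout and rose 1.79-fold (log2 change 0.84 ± 0.052 SE, adjusted p = 2.94e-10).

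Tagln2, transgelin 2, the abundant non-muscle form, had 273 and 289 CPM in wild-type soft, 633 and 629 in wild-type stiff, 252 and 239 in knockout soft and 252 and 245 in knockout stiff libraries, a 2.24-fold rise in wild type (log2 change 1.17 ± 0.042 SE, adjusted p = 1.87e-13). Tpm4, a tropomyosin of stress fibres, had 139 and 133 CPM in wild type at 1 kPa and 289.7 and 292 at 20 kPa, and 99.6 and 98.5 and then 95.03 and 99.3 in knockout and rose 2.13-fold (log2 change 1.09 ± 0.047 SE, adjusted p = 1.86e-12). Again the wild-type stiff libraries were the highest for both genes. The other tropomyosins changed by 0.82 (Tpm2, called), 0.62 (Tpm3, called) and 0.44 (Tpm1, not called), and Cald1, caldesmon, by 0.57 (called). Between 13.9% and 19.5% of the windows of Cnn3, Tpm3 and Tpm4 are shared with other genes, as are 19.2% of those of Cfl1 and 37.5% each of those of Tmsb10 and Arpc1b, so the counts of these genes depend on how shared reads were assigned.

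Of the 6 genes of non-muscle myosin II 5 were called higher. Myl12a, a regulatory light chain, had 204 and 194 CPM in wild-type soft, 360.0 and 353 in wild-type stiff, 169 and 167 in knockout soft and 179 and 172 in knockout stiff libraries, a 1.79-fold rise (log2 change 0.84 ± 0.044 SE, adjusted p = 2.93e-11). Myh9, the main heavy chain, rose 1.53-fold (log2 change 0.61 ± 0.036 SE, adjusted p = 1.61e-10) and Myl6, the essential light chain, by about as much (log2 change 0.62 ± 0.042 SE, adjusted p = 1.09e-09). Myh10, the lesser heavy chain, changed by 0.49 and was not called. The calls of Myl9 (log2 change 2.38 ± 0.62 SE, adjusted p = 0.00499, 3 to 35 counts in a library) and Myl12b (log2 change 0.56 ± 0.20 SE, adjusted p = 0.0354) are weak. Myl9 was lost without replicate 1 of either wild-type group (1.65 and 1.69, adjusted p = 0.0912 and 0.12). Myl12b was lost without wild-type soft replicate 1 or wild-type stiff replicate 2 (0.43 and 0.41) and with DESeq2 (adjusted p = 0.13), and 28.2% and 32.5% of the windows of Myl12a and Myl12b are shared with other genes.

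Focal adhesion genes split, with 7 of 11 higher and 1 lower. Ilk, integrin-linked kinase, had 1.46 and 2.55 CPM in wild-type soft, 5.06 and 5.84 in wild-type stiff, 1.60 and 0.945 in knockout soft and 1.31 and 0.889 in knockout stiff libraries and rose 2.78-fold (log2 change 1.48 ± 0.29 SE, adjusted p = 0.000513). It overlaps Taf10 on the opposite strand, which averaged 2100 counts a library against 51.2 for Ilk and changed by 0.074 in wild type. It also overlaps Rrp8 on that strand, which averaged 649 counts and changed by 0.33 ± 0.089 (adjusted p = 0.00621), in the direction of Ilk. In all 82.6% of the Ilk windows are shared, so the count of Ilk is uncertain. Its partners Parva, parvin, and Lims1, the adapter PINCH, rose as well (log2 change 0.65 ± 0.053 SE, adjusted p = 1.37e-08 and log2 change 0.55 ± 0.056 SE, adjusted p = 2.74e-07). So did Fermt2, kindlin 2, and Tln1, talin 1, both of which activate integrins (log2 change 0.70 ± 0.050 SE, adjusted p = 2.15e-09 and log2 change 0.74 ± 0.045 SE, adjusted p = 2.16e-10). Zyx, zyxin, and the kinase Src rose by 0.58 and 0.55, but without wild-type soft replicate 1 by 0.47 and 0.48, under the fold threshold. Tln2, Ptk2 (focal adhesion kinase) and Pxn (paxillin) changed by 0.40, 0.21 and 0.17 and were not called.

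Vcl, vinculin, which reinforces the bond between talin and actin under load, was the one member called lower, and its values are given for that reason. It had 164 and 159 CPM in wild-type soft, 107 and 109 in wild-type stiff, 149 and 152 in knockout soft and 160.4 and 149 in knockout stiff libraries. The stiff wild-type libraries were the lowest, a fall to 0.669 of the soft level (log2 change -0.58 ± 0.050 SE, adjusted p = 3.01e-08). Of its windows 39.0% are shared with Ap3m1, which overlaps Vcl on the opposite strand, averaged 1319 counts against 3097 for Vcl and changed the other way (0.30 ± 0.061, adjusted p = 0.000592). The changes of the 3 adhesion genes that were not called, given above, were positive. The CArG box of Vcl lies in the promoter printed above.

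Of the nuclear members, Lmna, lamin A/C, changed by 0.25 ± 0.039 (adjusted p = 4.36e-05) and Srf by 0.48 ± 0.076 (adjusted p = 6.01e-05), neither past the fold threshold. Without wild-type soft replicate 2, Srf, Vasp and Myh10 were called (0.59, 0.59 and 0.57), as were Srf and Vasp without wild-type stiff replicate 2 (0.54 and 0.55) and Myh10 without wild-type stiff replicate 1 (0.51).

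In knockout hepatocytes the same comparison of stiff with soft called none of the 55 members in either direction, with edgeR and with DESeq2, beside 0.0210% of all genes (0.0140% higher, 0.00700% lower). At an unadjusted p under 0.05 there were 9 members of 55, against 7.54% of all genes tested, and the smallest adjusted p was 0.597. The median log2 change was 0.0056 and the median absolute change 0.064, against 0.092 over all genes. For 30 of 55 members the 2 groups did not overlap, against 38.1% of all genes.

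The intervals show how much change the knockout data leave room for. For 50 of 55 members, 29 of them among the 33 called in wild type, the 95% interval lay within -0.5 and 0.5. Actb changed by 0.054 (95% interval -0.019 to 0.13), Actn1 by 0.091 (95% interval -0.00099 to 0.18), Flna by 0.038 (95% interval -0.043 to 0.12), Msn by 0.0056 (95% interval -0.084 to 0.096) and Cnn2 by 0.051 (95% interval -0.23 to 0.34). Intervals were wide for the low genes, as for Enah at -0.28 (95% interval -1.05 to 0.48), Ilk at -0.23 (95% interval -1.01 to 0.55), Myl9 at 0.21 (95% interval -0.91 to 1.34) and Tln2 at -0.18 (95% interval -0.61 to 0.24). Cnn1, with 8 counts at 1 kPa and 0 at 20 kPa, is too low for a fold. The highest value, 0.25 for Srf, had an adjusted p of 0.597.

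**Figure D3:**
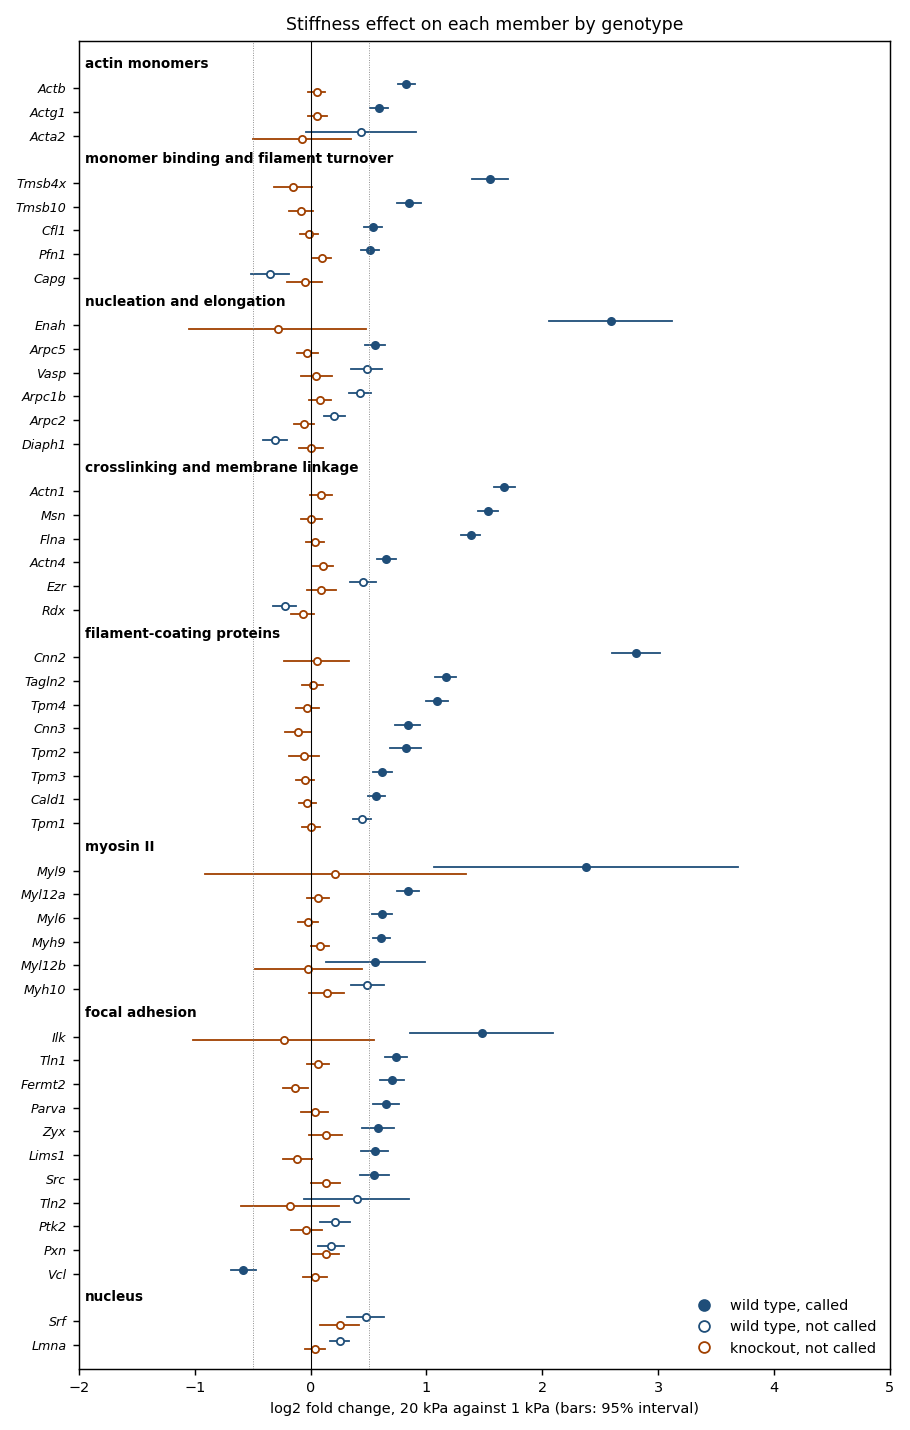
Log2 fold change on 20 kPa against 1 kPa for 47 members grouped by role, wild type in blue and knockout in orange, with bars for 95% intervals, filled circles for called genes and dotted lines at -0.5 and 0.5. Cnn1 is left out because both knockout stiff libraries were at 0, and Tagln was not tested. The blue points lie to the right of 0 for most members with Vcl at -0.58 on the left, and the orange points cluster at 0.

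Whether the stiffness effect itself differed between genotypes was tested as an interaction. It was called for 28 of 55 members (50.9%), 27 with a lower effect in knockout and 1, Vcl, with a higher one, beside 16.8% of all genes (8.64% higher, 8.21% lower). With no minimum fold change 3 were higher and 41 lower, beside 15.3% and 14.1% of all genes. The median difference was -0.55, against 0.015 over all genes. By role, it was called lower for 2 of 3 actins, 3 of 5 genes of monomer binding and turnover, 2 of 6 of nucleation, 4 of 6 crosslinkers and linkers, 8 of 9 coating proteins, 3 of 6 of myosin II and 5 of 11 of the adhesion. Cnn2 had -2.76 ± 0.17 (adjusted p = 6.39e-10), Enah -2.87 ± 0.45 (adjusted p = 7.46e-05), Tmsb4x -1.70 ± 0.11 (adjusted p = 1.03e-09) and Actn1 -1.58 ± 0.061 (adjusted p = 1.96e-12). Vcl had 0.62 ± 0.070 (adjusted p = 1.95e-06). Actg1 passed by little, at -0.53 ± 0.053 (adjusted p = 4.43e-07), and was -0.4975 without knockout stiff replicate 2, and Myh9 at -0.53 ± 0.051 (adjusted p = 2.6e-07) was -0.49 without wild-type soft replicate 1. Ilk at -1.71 ± 0.47 (adjusted p = 0.0107) was -1.26 (adjusted p = 0.121) without knockout soft replicate 1. For Pfn1, Zyx, Src, Myl9 and Myl12b, which were called in wild type, the interaction was not called, at -0.42, -0.45, -0.42, -2.17 and -0.58. Without wild-type soft replicate 2 it was called for Zyx, Src, Myl9 and Vasp (-0.58, -0.51, -3.15 and -0.55), without wild-type stiff replicate 2 for Myl9 and Vasp (-2.62 and -0.5042), without knockout stiff replicate 1 for Zyx and Vasp (-0.56 and -0.5049) and without knockout stiff replicate 2 for Myl9 (-2.64).

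Knockout and wild type were then compared on each hydrogel. On the soft hydrogel 7 of 55 members were called (12.7%), 1 higher and 6 lower, beside 6.67% of all genes (2.02% higher, 4.65% lower). With no minimum fold change 6 were higher and 22 lower, beside 7.48% and 10.9% of all genes. The median was -0.099 and the groups did not overlap for 40 of 55 members, against 56.2% of all genes. The libraries of wild type on the soft hydrogel enter this comparison and the wild-type stiffness comparison alike, so their values are set side by side without any count of genes in common.

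Cnn2 fell to 0.563 of the wild-type level (log2 change -0.83 ± 0.12 SE, adjusted p = 7.29e-05). Actn1 and Actg1 fell to 0.661 (log2 change -0.60 ± 0.043 SE, adjusted p = 1.01e-08) and 0.674 (log2 change -0.57 ± 0.038 SE, adjusted p = 3.05e-09). Ezr, ezrin, had 66.1 and 66.1 CPM in wild-type soft, 91.2 and 89.8 in wild-type stiff, 42.5 and 40.8 in knockout soft and 44.4 and 44.6 in knockout stiff libraries, with both knockout groups below both wild-type groups, and fell to 0.631 (log2 change -0.66 ± 0.057 SE, adjusted p = 8.43e-08). The calls of Myh10 and Srf hung on the scaling. Myh10 changed by -0.52 ± 0.070 (adjusted p = 2.46e-05) and Srf by -0.51 ± 0.080 (adjusted p = 0.000116), and with library totals in place of TMM factors they changed by -0.46 each and were no longer called. Both were also lost without wild-type soft replicate 2 (-0.44 and -0.40) or knockout soft replicate 1 (-0.4958 and -0.47). Srf was lost with upper quartile scaling too (-0.4971). Cnn3, not called with all libraries, was called lower without wild-type soft replicate 2 (-0.53) or knockout soft replicate 1 (-0.5016).

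Acta2 was the one member called higher on the soft hydrogel. It had CPM of 2.08 and 2.17 (wild-type soft), 2.70 and 3.05 (wild-type stiff), 4.06 and 3.98 (knockout soft) and 3.98 and 3.66 (knockout stiff), all of them low, with 39 to 104 counts in a library, and the soft knockout libraries were 1.90 times the wild-type ones (log2 change 0.92 ± 0.21 SE, adjusted p = 0.0048). Markers of stellate cells and fibroblasts (13 of 13 with counts) summed to 37.6 to 38.2 CPM in wild-type soft, 23.8 to 25.3 in wild-type stiff, 52.5 to 53.9 in knockout soft and 53.8 to 56.2 in knockout stiff libraries. Of the 10 tested, 3 were called higher in knockout on the soft hydrogel and none lower, beside 2.02% and 4.65% of all genes. Lrat, which defines quiescent stellate cells, had 0 to 4 counts. Endothelial markers (9 of 9) ran from 47.3 to 93.8 CPM and Kupffer cell markers (11 of 11) from 64.3 to 138, each lowest in wild-type stiff and highest in knockout stiff. On the soft hydrogel 3 of 9 endothelial and 5 of 11 Kupffer cell markers were called higher in knockout and none lower. Smooth muscle markers (5 of 5) summed to 7.96 to 9.87 CPM in 3 groups and to 17.7 to 17.9 in wild-type stiff, most of it Smtn. Des, also on the stellate list, had 13 to 40 counts and Myh11 had 2 to 8. Cholangiocyte markers (6 of 7 with counts, Cftr at 0 in all 8) summed to 571 to 626 CPM in wild type and 341 to 367 in knockout, most of it Spp1. Among them Krt19, a keratin of bile duct cells, moved with the members, at 47 and 44 counts in wild-type soft, 436 and 396 in wild-type stiff and 11 to 17 in knockout libraries, while Epcam had 6 to 24 counts and Krt7 0 to 3. Of the 5 cholangiocyte markers tested, 1 was called higher on the stiff hydrogel in wild type and none lower, beside 10.0% and 9.26% of all genes. In the same comparison 5 of 10 stellate, 4 of 9 endothelial and 6 of 11 Kupffer cell markers tested were called lower. Of these types only 1 stellate marker was called higher. Among 2 smooth muscle markers tested 1 was called higher and none lower. In knockout, stiff against soft called no marker of these cell types. The part of these cells in any of the results was not tested, and in bulk RNA fewer cells of a type and less RNA per cell cannot be told apart.

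On the stiff hydrogel 34 of 55 members were called (61.8%), 32 lower and 2 higher in knockout, beside 28.7% of all genes (13.7% higher, 15.0% lower). With no minimum fold change 5 were higher and 44 lower, beside 25.4% and 25.7% of all genes. The median was -0.67, against 0.011 over all genes, and the groups did not overlap for 53 of 55 members, against 74.5% of all genes. The wild-type stiff libraries also enter the wild-type stiffness comparison and the interaction, so these calls are not independent of those. Cnn2 stood at 0.0834 of the wild-type level (log2 change -3.58 ± 0.11 SE, adjusted p = 5.12e-15), Enah at 0.0886 (log2 change -3.50 ± 0.28 SE, adjusted p = 6.19e-09), Ilk at 0.203 (log2 change -2.30 ± 0.32 SE, adjusted p = 8.23e-06) and Actn1 at 0.221 (log2 change -2.18 ± 0.044 SE, adjusted p = 2.15e-17). With 3 counts in each library as the floor, Cnn1 was at least 9.93-fold lower.

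Other called falls on the stiff hydrogel were -1.63 for Msn, -1.59 for Flna, -1.58 for Tpm4, -1.57 for Tmsb4x, -1.42 for Cnn3, -1.12 for Actb and -1.10 for Actg1. Ezr, Myh10 and Srf fell here as well (-1.02, -0.87 and -0.74). Capg and Vcl were called higher in knockout, by 0.69 ± 0.075 (adjusted p = 4.07e-07) and 0.52 ± 0.050 (adjusted p = 7.65e-08), and Vcl fell under the fold threshold without wild-type stiff replicate 1 (0.4969) or knockout stiff replicate 1 (0.46). Vasp was called lower without knockout stiff replicate 1 or wild-type stiff replicate 2 (-0.55 each) and Tpm2 without knockout stiff replicate 2 (-0.54). On this hydrogel the summed markers of stellate, endothelial and Kupffer cells given above were higher in knockout than in wild type, and those of smooth muscle and cholangiocytes were lower, as were the members called lower. Of those tested, 8 of 10 stellate, 8 of 9 endothelial and 10 of 11 Kupffer cell markers were called higher. The share of all genes called higher was 13.7%. Lower calls were 1 stellate, 1 of 2 smooth muscle and 2 of 5 cholangiocyte markers, and 1 smooth muscle marker was called higher.

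**Figure D4:**
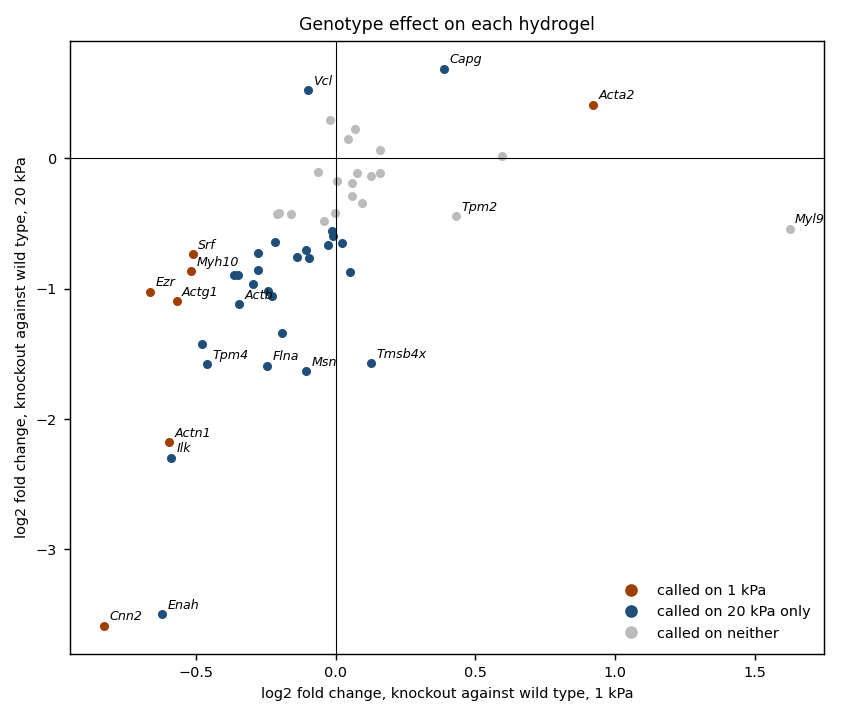
Log2 fold change of knockout against wild type on the 1 kPa (x axis) and 20 kPa hydrogel (y axis) for 54 members, coloured by where they were called, with Cnn1 left out because of its libraries at 0 and Tagln not tested. Most points lie below 0 on the y axis and near 0 on the x axis, with Cnn2 lowest, Acta2 called higher on 1 kPa, and Capg and Vcl called higher on 20 kPa.

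Within families the stiff hydrogel went with another make-up in wild type. The shares below are of CPM per kilobase of gene length, as mean ± SD of 2 libraries, and are descriptions with no test, since 2 against 2 libraries allow no permutation p under 0.05. Actn1 made up 36.7% ± 0.031 of the alpha-actinins Actn1 and Actn4 in wild-type soft, 54.0% ± 0.55 in wild-type stiff, 32.8% ± 0.41 in knockout soft and 32.6% ± 0.15 in knockout stiff libraries. Msn went from 38.1% ± 0.56 to 63.1% ± 0.39 of the ezrin, radixin and moesin (ERM) total in wild type and was 38.8% ± 0.18 and 39.4% ± 0.27 in knockout. Rdx moved the other way, from 39.9% ± 0.19 to 19.6% ± 0.32, with 45.9% ± 0.079 and 44.2% ± 0.17 in knockout. Radixin held the largest share in both wild-type soft libraries, by a small margin over moesin, and moesin in both wild-type stiff ones.

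Of the calponins, Cnn2 held 7.46% ± 1.01 in wild-type soft and 23.7% ± 0.36 in wild-type stiff libraries, and 5.90% ± 0.56 and 6.53% ± 0.051 in knockout. Tpm4 held 17.7% ± 0.28 and 23.8% ± 0.11 of the tropomyosins in wild type and 12.9% ± 0.11 and 12.9% ± 0.20 in knockout, while Tpm1 led in all 4 groups. Tmsb4x went from 17.5% ± 0.55 to 25.6% ± 0.13 of the thymosin pair in wild type. Other families changed less. Actb was 80.9% ± 0.017 of the actins in wild-type soft and 83.3% ± 0.40 in wild-type stiff libraries, and Myh9 was 93.3% to 94.9% of the non-muscle heavy chains Myh9, Myh10 and Myh14 by group mean.

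**Figure D5:**
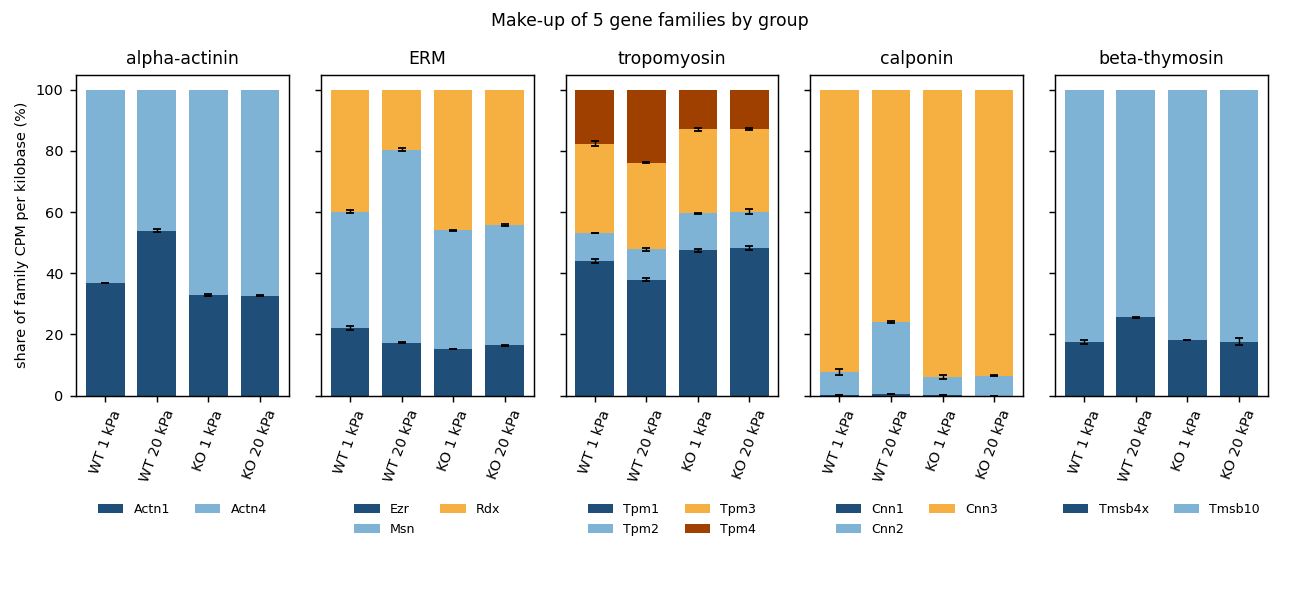
Share of each family's CPM per kilobase held by its members in the 4 groups (WT, wild type; KO, knockout), as stacked means of 2 libraries with bars for the SD of each share but the topmost. The wild-type 20 kPa column differs from the other 3 in the alpha-actinin, ERM, tropomyosin, calponin and beta-thymosin panels.

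A list of 85 other actin and adhesion genes, also chosen with earlier results of these data known, was read in the same way, and 80 were tested. In wild type 24 were called higher and 4 lower on the stiff hydrogel (35%), with a median of 0.29, beside the 19.3% of all genes given above. In knockout none was called, with edgeR or DESeq2, beside 0.0210% of all genes with edgeR. An unadjusted edgeR p under 0.05 was found for 8 of the 80, beside 7.54% of all genes. The interaction was called for 5 higher and 22 lower (33.8%, beside 16.8% of all genes). Knockout against wild type was called for 1 higher and 6 lower at 1 kPa, a share of 8.75% that lies near the 6.67% of all genes, and for 7 higher and 31 lower at 20 kPa (47.5%, beside 28.7%).

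The 5 largest rises among those with a mean of at least 100 counts were in Flnc, filamin C (log2 change 2.43 ± 0.074 SE, adjusted p = 2.2e-14), Fblim1, which binds filamins at adhesions (log2 change 2.16 ± 0.13 SE, adjusted p = 2.94e-10), Gsn, gelsolin, which severs and caps filaments (log2 change 1.65 ± 0.17 SE, adjusted p = 2.5e-07), Lmnb1, lamin B1 (log2 change 1.54 ± 0.12 SE, adjusted p = 4.45e-09), and Ajuba, a LIM protein of adhesions and junctions (log2 change 1.26 ± 0.062 SE, adjusted p = 1.34e-11). Flnc had 44.3 and 52.3 CPM in wild-type soft, 254 and 263 in wild-type stiff, 18.6 and 17.9 in knockout soft and 16.4 and 20.1 in knockout stiff libraries. The 4 called lower were Arhgef2, a guanine nucleotide exchange factor (log2 change -0.90 ± 0.060 SE, adjusted p = 9.11e-10), Pfn2, profilin 2 (log2 change -0.76 ± 0.17 SE, adjusted p = 0.00112), Mylk, myosin light chain kinase (log2 change -0.62 ± 0.13 SE, adjusted p = 0.000912), and Mrtfb, one of the SRF cofactors (log2 change -0.58 ± 0.064 SE, adjusted p = 7.55e-07). Mrtfb had 57.9 and 54.0 CPM in wild type at 1 kPa and 37.9 and 37.0 at 20 kPa, and 55.0 and 55.4 and then 61.5 and 57.5 in knockout. Its relative Mrtfa changed by -0.066 ± 0.095 (adjusted p = 0.622) and was not called.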

How the data were processed

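RNA was sequenced from 8 libraries of mouse primary hepatocytes, 2 in each of 4 groups, and only the gene-level table was used. Paired-end reads were aligned by the authors with HISAT2 (v2.0.5) and assigned to genes with featureCounts, and the deposited values are raw counts with no normalization. The authors' strand and multi-mapping settings are not given in the sources used here, so reads of overlapping genes and near-identical copies may be split or lost. The submitters' notes name mm9, yet only 3 of 56 members have the start and end of GENCODE M21 (GRCm38) and 54 have the same span length, so the build was not settled and gene positions are not printed.

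Genes were tested in 1 fit of all 8 libraries with edgeR 4.0.16 (filterByExpr, TMM, glmQLFit and glmQLFTest) in R 4.3.3, with a term for each group, 4 residual degrees of freedom and Benjamini-Hochberg adjustment over 14279 genes. Calls required both an adjusted p below 0.05 and a log2 fold change above 0.5 in size. CPM used the library totals over the genes tested (18310380 to 26422465 counts) multiplied by the TMM factors (0.978 to 1.02). CPM per kilobase divided by the deposited gene length. Counting limits cover counting error only. DESeq2 1.42.0, other scalings and filters, a replicate block and leaving out each library were alternatives. The code was tested on simulated counts. Shared sequence was the share of windows of 64 bases of a gene's longest GENCODE M21 transcript found in transcripts of other genes.

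The members, their roles, the other list and the tests were chosen with earlier results of these data known. The members of 1 role (7 genes) enter every count, median and share of the list but are not reported one by one here or drawn by name. All other members could be named. Values in every library were given for the 10 largest called wild-type changes at a mean of at least 100 counts, the 5 highest per length, and up to 5 called for genotype on each hydrogel. Of the other list, up to 5 rises and 5 falls by the same floor, with Mrtfa and Mrtfb, were named. Vcl was given in full after its values were seen.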

Additional observations from a re-analysis of the deposited data

Results flagged for a closer look

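For 28 of the 55 members tested the stiffness effect differed between the genotypes by a test of the interaction (edgeR, adjusted p under 0.05 and absolute difference over 0.5). The values are log2 effects in knockout minus those in wild type, with 2 libraries in each group.

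Among actins and their monomer and turnover proteins, the differences were -0.77 for Actb, -0.53 for Actg1, -0.55 for Cfl1, -1.70 for Tmsb4x and -0.93 for Tmsb10. Nucleation and elongation gave -0.59 for Arpc5 and -2.87 for Enah. Crosslinkers and linkers gave -1.58 for Actn1, -0.55 for Actn4, -1.34 for Flna and -1.53 for Msn. The coating proteins gave -1.15 for Tagln2, -2.76 for Cnn2, -0.95 for Cnn3, -0.60 for Cald1, -0.87 for Tpm2, -0.67 for Tpm3 and -1.12 for Tpm4. Cnn1 had a fitted -8.28, which depends on how libraries at 0 are handled and is no bound.

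Myosin II gave -0.53 for Myh9, -0.78 for Myl12a and -0.64 for Myl6. Adhesion genes gave -0.67 for Tln1, -1.71 for Ilk, -0.62 for Parva, -0.67 for Lims1 and -0.83 for Fermt2, and Vcl alone was positive, at 0.62.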

How the results depend on the processing

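Apart from the knockout median of stiff against soft, which lay near 0 and took either sign, no median over the members changed direction under the alternatives run, and moves past the stated limits came mostly from the fold threshold. With no minimum fold change, wild-type stiff against soft called 4 members lower, the interaction 3 higher and 41 lower, knockout against wild type 6 higher and 22 lower on soft and 5 higher on stiff. With an absolute log2 fold change over 1, wild type had 11 higher and 0 lower, the interaction 0 higher and 10 lower, soft 0 higher and 0 lower, and stiff 0 higher and 16 lower. The share of all genes called over 1 was not counted, so these counts do not show whether the members stand out there. On soft, 2 members were called higher with upper quartile scaling, with library totals and with no filter on low counts (Tln2 in the first pair, Myl9 in the last, besides Acta2). With library totals the median was -0.045 on soft and -0.61 on stiff, where the median of all genes was 0.054 and 0.068. The other scalings, DESeq2, robust empirical Bayes, a minimum of 10 counts and the fit of the compared libraries alone, which cannot be run for the interaction, moved no member count by over 1.5 times.

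Leaving out each library in turn, wild type had 27 (without wild-type soft replicate 1) to 35 (without wild-type soft replicate 2) members higher and 1 lower, with medians of 0.54 to 0.59. Knockout had 0 in both directions, with medians of -0.010 to 0.018. The interaction had 1 higher and 26 to 31 lower, medians -0.58 to -0.50. Soft had 1 higher and 5 to 6 lower, medians -0.10 to -0.068, and stiff had 1 to 2 higher and 32 to 34 lower, medians -0.70 to -0.66. Where a group was left with 1 library, it was assumed to vary like the others. The share of all genes called was not counted in these fits either, so they show only how the calls of the members vary. The replicate numbers did not pair the libraries (correlations of replicate differences between groups -0.10 to 0.042), and with a replicate block the counts were the same, 32 higher and 1 lower in wild type and 27 lower for the interaction. Depth limits Cnn1, Enah, Ilk, Myl9, Tln2 and Tagln.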

Other observations

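Actb is widely used as a reference gene for transcript measurements and vinculin as a loading control for protein. In these libraries Actb was 1.77-fold higher on stiff than soft in wild type and stood at 0.461 of the wild-type level in knockout on the stiff hydrogel, and Vcl changed by -0.58 and 0.52 on the log2 scale in the same comparisons. In knockout the change with stiffness was 0.054 and 0.041, and neither was called. Protein was not measured here.

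The targeted genes changed with stiffness too. In wild type Wwtr1 was called higher on the stiff hydrogel (log2 change 0.62 ± 0.070 SE, adjusted p = 1.06e-06) and Yap1 changed by 0.49 ± 0.058 (adjusted p = 1.69e-06), just under the fold threshold.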
